A study of Mus musculus with 9 samples.

Results

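The comparison is between mouse cortical neurons depolarised with potassium chloride (KCl) and untreated neurons of the same kind. Its members were chosen by their titles, as the 3 arrays of KCl replicates 1 to 3 and the 3 arrays of control replicates 1 to 3, which is 6 of the 9 arrays of the study. The neurons came from the cortex of C57bl/6 embryos at day 15 (E15) and were kept in culture for 12 days. KCl was given at 50 mM for 6 h, and the controls had no treatment. The other 3 arrays, which enter the fit and one comparison near the end, are from neurons given 25 µM bicuculline, a blocker of GABA-A receptors, for 6 h. No group carries a deletion or a transgene. The labels do not say whether replicates are separate cultures, so the p-values rest on the differences among these arrays alone, and these may be technical.

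High extracellular potassium shifts the resting membrane potential and opens voltage-gated calcium channels, so that calcium enters without synaptic input. Calcium then acts through kinases and phosphatases on transcription factors such as CREB, MEF2 and SRF, which switch on early response genes. Many of those early genes encode transcription factors themselves, and later genes encode secreted peptides, channels, adhesion molecules and inhibitors of the signalling that induced them.

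Each array read 43379 non-control spots in 1 colour, of which 65.0% to 72.2% on the control and KCl arrays were well above background and 0 were saturated. The 75th percentile of the signal was 1804 to 3087 on the control arrays and 1586 to 1679 on the KCl arrays. Signals below are scaled to that percentile and put in common units, so a signal serves to compare arrays for 1 probe, not probes with each other. Of the marker genes, 14 of 14 neuronal markers were above background, and their summed signal was 562810 to 617650 in control and 670435 to 698188 under KCl. Markers of endothelial, mural and fibroblast cells summed to 52557 to 54904 in control and 90134 to 99382 under KCl, mostly through Tagln, an actin-binding protein of smooth muscle (1.27), while the defining endothelial genes Cdh5 and Pecam1 were not above background on any array. Microglia and macrophage markers, 13 of 14 on the array, summed to 12389 to 13001 and 14983 to 22733. Those of cycling cells and progenitors, which include the Notch-dependent Hes5, summed to 59034 to 62180 and 54844 to 56495. In such cultures fewer cells of a type and less RNA per cell cannot be told apart.

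Many genes differed by a small amount between KCl and control, and changes past 4-fold were mainly rises. Of 14062 genes tested with limma, 5036 were higher under KCl (35.8%) and 5063 lower (36%) at an adjusted p under 0.05, in all 71.8%. With a normexp background correction the counts were 1834 and 2316, in all 29.5%. The arrays of the groups did not overlap for 74.8% of the genes. The median size of a called change was 0.43 on the log2 scale, and 66.2% of the called genes changed less than 1.5-fold. Replicates of a gene had a median log2 SD of 0.054 in control and 0.065 under KCl. Rises of at least 2-fold were found for 822 genes (5.85%) and falls of that size for 398 (2.83%). At 4-fold the counts were 161 and 14, and at 8-fold 55 and 0. The 2-fold balance turned with the scale, at 431 rises and 1550 falls with spike-in scaling and 635 and 709 with median scaling, while at 4-fold these settings gave 103 and 52, and 127 and 23. Of the 822 rises, 580 were well above background on all 6 arrays, as were 343 of the 398 falls.

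The balance of rises and falls depends on the scale. With the array's spike-in probes as the scale, the median of all genes was -0.38, with 1385 genes higher and 7472 lower; with the array median it was -0.14, with 2941 and 6301, and with quantile normalization -0.06, with 3946 and 5880. Of the called genes, 49.9% were higher as reported, 40.2% with quantile normalization, 31.8% with the median and 15.6% with the spike-in scale. Changes are therefore given relative to the 75th percentile, and a family's median is given with its range over 5 scalings, which include a normexp background correction. KCl 1, KCl 2 and control 3 shared a slide, and within it 10094 of 10095 called genes had the same sign, which is largely built in since these arrays made the calls. Control 1 and control 2 lay on a slide without KCl arrays, and KCl 3 on a slide without controls. Treatment and slide are therefore largely confounded. With slide as a block 4254 genes were higher and 4542 lower.

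**Figure D1:**
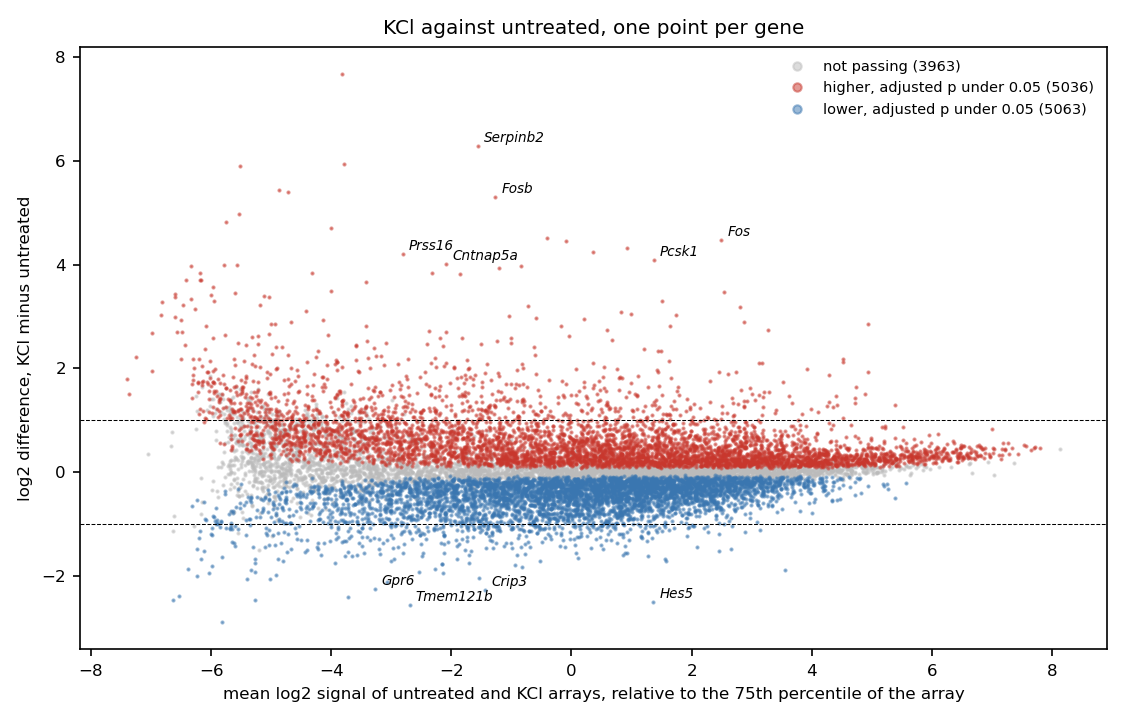
Each point is a gene, with the mean log2 signal of the untreated and KCl arrays on the horizontal axis and the log2 difference, KCl minus untreated, on the vertical axis; dashed lines mark 2-fold. The 5036 higher (red) and 5063 lower (blue) genes are close in number, but rises reach past 6 on the log2 scale and no fall reaches -3.

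The strongest rises above background on both sides were in a protease inhibitor, early transcription factors and genes of peptide secretion. Serpinb2, an inhibitor of plasminogen activators, had signals of 87.1, 67.2 and 74.3 on control 1 to 3 and 5879, 5819.7 and 6116 on KCl 1 to 3, a rise of 78.4-fold (log2 6.29 ± 0.10, adjusted p = 6.5e-09). Fosb, a partner of Jun proteins in AP-1, went from 113, 130.2 and 153 to 4863, 5365 and 5260.3 (39.3-fold, adjusted p = 1.1e-08). In both genes the lowest KCl array lay far above the highest control array, and the KCl arrays differed among themselves by far less than the control arrays lay below them. Fos went from 2306, 2374 and 2451 to 51407, 52774 and 53607 (22.1-fold, 4.47 ± 0.04, adjusted p = 5.4e-10). Npas4, an activity-dependent bHLH-PAS factor, went from 892, 790.3 and 837 to 17827, 15964 and 16572 (20.0-fold, 4.32 ± 0.08), and Atf3, a stress-responsive member of the ATF family, from 568, 596 and 600.3 to 10249.6, 11193 and 11911 (18.9-fold, 4.24 ± 0.07). For these factors no array of one group reached the other, which was a condition for choosing the largest rises.

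Peptide genes stood beside the factors. Cartpt, precursor of the CART peptides, had 379, 413 and 404 in control and 8352, 9275 and 8477 under KCl (21.8-fold, 4.45 ± 0.05, adjusted p = 1.6e-09). Pcsk1, the convertase that cuts prohormones in the regulated secretory pathway, had 1207, 1254 and 1257 and 20738, 19964 and 22511 (16.98-fold, 4.09 ± 0.05), and its other probe rose by 6.37. Bdnf, the neurotrophin, had 4518, 4483 and 4689 and 41080.2, 41577 and 42251 (9.12-fold, 3.19 ± 0.03; 2.63 by its other probe). In each of these genes every control array lay below every KCl array, which the choice of Cartpt and Pcsk1 as largest rises required.

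Less familiar genes filled the rest of the top 12. Hspb3, a small heat shock protein, rose 22.8-fold (4.51 ± 0.06), Prss16, a serine protease known from the thymus, 18.4-fold (4.20 ± 0.09), Abhd2, a lipid hydrolase, 15.8-fold (3.98 ± 0.05; 3.29 to 4.01 over its 3 probes). Cntnap5a, a contactin-associated membrane protein, rose 16.1-fold (4.01 ± 0.05) and Ankrd33b 15.3-fold (3.94 ± 0.07), but not on all their probes: the other Cntnap5a probe gave 0.15, and the 3 Ankrd33b probes ranged from 0.72 to 3.94. The 12 rises passed under each alternative run.

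**Figure D2:**
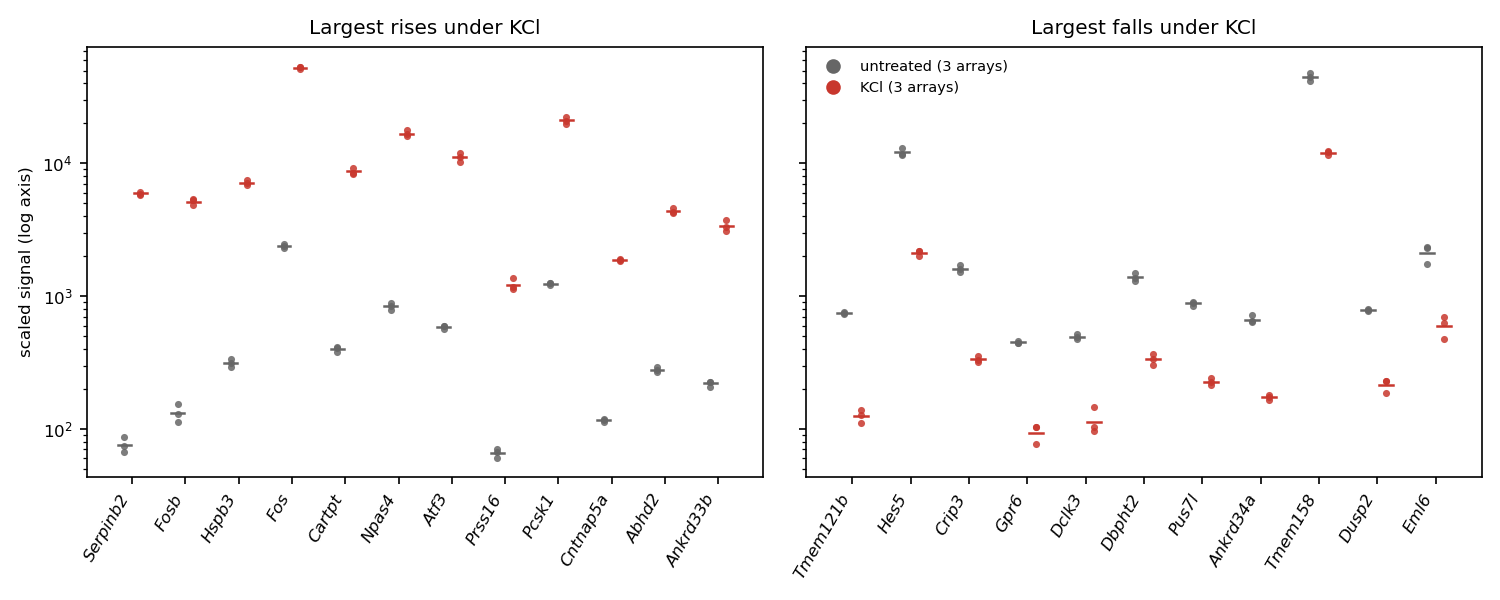
Scaled signal on a log axis for the 12 largest rises and 11 of the largest falls among genes well above background on all 6 arrays; points are arrays, bars the mean of the log2 values of 3 arrays. Untreated (grey) and KCl (red) arrays do not overlap for any of the 23 genes, which was a condition for choosing them. The gaps are wider on the side of the rises.

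The promoters of the leading rises are shown for the cAMP response element (CRE), the letters TGACGTCA that CREB family factors bind. Among the 12 largest rises and 8 activity genes, the RefSeq promoter window (assembly GRCm38.p6, 250 bases before the start to 50 after) held the full CRE in Cartpt and Pcsk1. The 250 bases before the start are printed, 5′ to 3′ on the gene's strand, with the CRE and its half-site TGACG (on either strand, overlapping in the full element) in capitals. Areg, Fos and Npas4 were added after their values were seen, Areg for its full CRE and the others for half-sites. Cartpt lies on chr13:99900684-99900933, minus strand, Pcsk1 on chr13:75089607-75089856, plus strand, Areg on chr5:91139349-91139598, plus strand, Fos on chr12:85473640-85473889, plus strand, and Npas4 on chr19:4989972-4990221, minus strand.
Cartpt: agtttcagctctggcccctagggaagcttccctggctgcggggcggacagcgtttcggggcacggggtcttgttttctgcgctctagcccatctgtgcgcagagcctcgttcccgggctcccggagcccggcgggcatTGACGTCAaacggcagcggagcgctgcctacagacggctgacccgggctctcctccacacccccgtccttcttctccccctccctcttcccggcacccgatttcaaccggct
Pcsk1: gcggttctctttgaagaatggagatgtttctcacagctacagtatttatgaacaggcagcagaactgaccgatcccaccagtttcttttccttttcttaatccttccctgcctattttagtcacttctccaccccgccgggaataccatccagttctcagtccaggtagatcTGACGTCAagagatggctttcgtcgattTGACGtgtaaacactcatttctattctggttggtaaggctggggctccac
Fos: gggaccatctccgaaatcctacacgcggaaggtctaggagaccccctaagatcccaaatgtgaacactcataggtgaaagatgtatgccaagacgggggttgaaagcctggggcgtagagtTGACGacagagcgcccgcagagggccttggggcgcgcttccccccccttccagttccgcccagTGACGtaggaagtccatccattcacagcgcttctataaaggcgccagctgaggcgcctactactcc
Npas4: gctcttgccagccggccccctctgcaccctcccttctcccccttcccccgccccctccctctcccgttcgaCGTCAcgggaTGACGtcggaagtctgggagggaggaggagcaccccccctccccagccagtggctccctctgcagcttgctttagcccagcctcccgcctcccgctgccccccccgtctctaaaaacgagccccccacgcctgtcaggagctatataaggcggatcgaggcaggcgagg
Areg: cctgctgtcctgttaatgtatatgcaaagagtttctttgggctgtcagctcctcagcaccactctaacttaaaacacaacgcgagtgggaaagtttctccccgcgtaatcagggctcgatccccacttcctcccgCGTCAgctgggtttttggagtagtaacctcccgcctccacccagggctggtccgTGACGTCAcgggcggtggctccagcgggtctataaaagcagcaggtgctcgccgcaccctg
The CRE began 112 bases before the start in Cartpt, 78 in Pcsk1 and 61 in Areg. Fos and Npas4 held 2 half-sites each, at 129 and 66 bases in Fos and at 179 and 169 in Npas4. The half-site is common: the promoter window held at least 1 in 3774 of 11213 genes tested (33.66%). Its presence in Fos and Npas4 therefore does not set them apart.

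Across all genes with a window the full CRE was rare. It stood in 32 of 619 genes risen at least 2-fold (5.17%, 95% Wilson interval 3.69% to 7.21%), in 4 of 325 fallen at least 2-fold (1.23%, 0.480% to 3.12%) and in 388 of 11213 genes tested (3.46%). Among all 27025 genes of the table the share was 2.03%. Of 41 genes risen at least 8-fold by the fitted value, a set chosen after the data were seen, 5 held it, namely Areg, Cartpt, Pcsk1, Hhip, an inhibitor of Hedgehog ligands (at least 3.66-fold, from below background), and Dio2, which activates thyroid hormone (3.02). The AP-1 letters TGACTCA stood in 6.62% of the 619, 3.38% of the 325 and 4.60% of all tested. The E-box CACGTG stood in 10.2%, 9.23% and 11.2%, the Egr letters GCGTGGGCG in 0.808%, 0.615% and 1.32%, and the CArG box, which SRF binds, in 2.10%, 0.615% and 1.67%. Letters were searched on both strands, a gene with several windows counted once, and a match is a description of the window, not of a bound site.

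The largest falls were smaller and hit genes of other kinds. Hes5, a Notch-dependent repressor of neuronal differentiation, fell from 11744, 13122 and 11597 in control to 2015, 2173 and 2186 under KCl (5.72-fold lower, log2 -2.51 ± 0.06, adjusted p = 3.5e-08). Tmem158, a membrane protein known as Ras-induced, fell from 44460.0, 48115 and 41982 to 12102, 12363 and 11564 (3.73-fold lower). Crip3, a LIM domain protein, fell from 1730.3, 1526 and 1592 to 319, 355 and 329 (4.84-fold lower, -2.27 ± 0.06). The KCl arrays of these genes lay below every control array, which was a condition for choosing them. Tmem121b (5.96-fold lower, -2.57 ± 0.07) was the largest, and the constitutively active receptor Gpr6 (-2.26 ± 0.16), the kinase Dclk3 (-2.13 ± 0.14) and Dusp2, a nuclear MAP kinase phosphatase (-1.88 ± 0.08), were among them. Pus7l, a pseudouridine synthase homologue, fell by 1.96 on the log2 scale, Ankrd34a by 1.94, Dbpht2 by 2.05 and Eml6, a microtubule-associated protein, by 1.83. Of the 11 falls described, Tmem121b, Gpr6, Dclk3, Pus7l, Ankrd34a and Dusp2 did not pass with normexp (adjusted p from 0.083 to 0.45).

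Some genes left or entered the measurable range. Some genes were above background on all KCl arrays and on no control array, whatever their level under bicuculline. Of these, Lce1g, a cornified envelope gene of skin, had signals of 1950.4, 2032 and 2032 under KCl and at most 12.1 in control, a rise of at least 72.7-fold. Areg, an EGF-like ligand, rose at least 17.8-fold, Nr4a3, an orphan nuclear receptor, at least 16.2-fold, Lce1f at least 12.1-fold, Ifi202b, an interferon-inducible gene, at least 8.68-fold, Gpr171 at least 7.10-fold, Clca1 at least 6.68-fold and Baiap2l1 at least 6.01-fold. Lce1 genes are near-identical neighbours, so a probe may read more than 1 of them, and the other Lce1g probe rose by 2.00. Of the 17 epidermal differentiation genes measured, 16 were higher and 1 lower, where 35.8% of all genes were higher, with a median of 1.07 (0.67 to 1.43 over the 5 scalings). Another 8 of the 25 on the array did not pass the background filter, which members high under KCl alone can pass, so this count is a description, and the members well above background on all 9 arrays had a median of 0.30. In the other direction, the transcription factor Ebf2 fell at least 3.57-fold, Amigo2, an adhesion molecule, at least 2.94-fold, Sox13 at least 2.83-fold, the cation channel Trpc7 at least 2.81-fold and the Wnt ligand Wnt10a at least 2.79-fold. The bounds of 1700001J03Rik, Fam228a and Tbc1d32 were 2.70, 2.28 and 1.93. With normexp these 8 falls turned to small rises that did not pass (adjusted p from 0.42 to 0.89).

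Of the early response transcription factors, AP-1 members moved up most, and other groups were mixed. AP-1 and Maf factors had 12 genes higher and 2 lower of 15 tested, with a median of 1.25 (0.85 to 1.25 over the scalings), where 35.8% of all genes were higher. Besides Fosb, Fos and Atf3, Junb rose by 2.18 ± 0.03 and Fosl1 by 2.66 ± 0.34, the latter with 1 of 3 control arrays above background. Jun itself changed by 0.30 (-0.11 with spike-in scaling), and Jdp2, which represses AP-1, by -0.30. Nr4a and other orphan receptors had 7 genes higher and 3 lower of 13 tested, with a median of 0.39 (-0.02 to 0.64 over the scalings, and 0.02 for members above background on all 9 arrays). Among them Nr4a2 was at 3.46 ± 0.03, from 3472, 3409.9 and 3464 to 37889, 38147 and 38199, and Nr4a1 at 1.86 ± 0.05. The CREB list had 6 genes higher and 1 lower of 12 tested and 5 not passing. In it Crem, whose ICER products repress CREB targets, rose by 3.08 ± 0.04 (1.17 to 3.12 over 6 probes) and the kinase Sik1 by 2.16 ± 0.06, while Creb1 (0.07) and Crtc2 (0.02) did not pass.

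Egr factors did not follow the Fos family at this time. Egr1 had 13137, 12983 and 13151 in control and 8169, 8775 and 8466 under KCl (-0.63 ± 0.03, adjusted p = 1.1e-06), all KCl arrays below the control arrays. Egr2 was at 0.19, a call lost with median scaling and normexp and without control 2, KCl 1 or KCl 2 (adjusted p up to 0.64) and turned to -0.21 with spike-in scaling, while Egr4 (-0.13) and Srf (0.12) did not pass. Nab2, the corepressor that Egr1 induces, changed by -1.38 ± 0.10 but did not pass with normexp, and Mrtfb, a coactivator of SRF, rose by 2.72 ± 0.08. The Kruppel-like factors split, with 7 genes higher and 5 lower of 14 tested, where 35.8% of all genes were higher and 36% lower. Their median was 0.07 (-0.34 to 0.12 over the scalings): Klf4 (2.96 ± 0.05) and Klf5 (1.92 ± 0.03) rose and Klf10 (-1.41 ± 0.04) fell. In the circadian clock, Nfil3 (2.89 ± 0.03) and Per1 (1.37 ± 0.05), a direct CREB target, rose, and the output factors Dbp (-0.79 ± 0.06) and Ciart (-0.78) fell, Ciart not passing with normexp (adjusted p = 0.34). Nfil3 and Dbp bind the same sites with opposite effect. The Gadd45 and DNA methylation list had 6 genes higher and 5 lower of 15 tested, near the shares over all genes, with a median of 0.09 (-0.32 to 0.15 over the scalings). Gadd45a (1.96 ± 0.06), Gadd45g (1.35) and Gadd45b (1.31), which take part in DNA repair and demethylation, rose, as did the dioxygenase Tet2 (1.21), and the methyltransferase Dnmt3b was at -1.18 with 1 of 3 KCl arrays above background, a fall that turned to 0.67 with normexp and did not pass (adjusted p = 0.48). Class IIa Hdac9 rose by 1.53 ± 0.07 and Mef2d by 0.98 ± 0.12.

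Inhibitors of the signalling that KCl activates moved in both directions, the larger changes being rises. MAP kinase phosphatases had 9 genes higher and 4 lower of 14 tested, with a median of 0.56 (0.15 to 0.56 over the scalings), against 35.8% and 36% of all genes; with spike-in scaling 4 were higher and 4 lower. Dusp4, a nuclear phosphatase of ERK, went from 757, 796 and 786 to 4629.6, 4925 and 4776 (2.62 ± 0.06), and Dusp1 from 2486, 2476 and 2211 to 11990.2, 11937 and 12103 (2.33 ± 0.06). Neither overlapped between groups. Dusp16 was at 2.60 ± 0.40 with 1 of 3 control arrays above background, and Dusp7, a cytoplasmic ERK phosphatase, fell by 1.16. Of the Sprouty, Spred and SOCS type inhibitors, 11 genes higher and 3 lower of 16 tested (median 0.55, 0.15 to 0.88 over the scalings), led by Socs7 (3.48 ± 0.22), Errfi1, an inhibitor of the EGF receptor (1.56 ± 0.03), and Socs6 (1.41), with Socs2 (-0.96) and Socs5 (-0.59) lower. With spike-in scaling 7 were higher and 3 lower.

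RGS proteins, which speed GTP hydrolysis on G-protein alpha subunits, had 12 genes higher and 3 lower of 17 tested. Over all genes 35.8% were higher and 36% lower. The RGS list had a median of 0.41 (0.00 to 0.41 over the scalings), and 4 higher and 4 lower with spike-in scaling. Rgs2 went from 34639, 35201 and 34107 to 97444, 97995 and 98870.4 (1.502 ± 0.03; 0.76 by its other probe), and Rgs16 rose by 1.90 ± 0.15. Rgs17 fell by 1.00. Among small GTPases and Ras exchange factors 13 genes higher and 6 lower of 21 tested (median 0.27, -0.13 to 0.39 over the scalings; 7 higher and 8 lower with spike-in scaling). Rasd1, a dexamethasone-induced Ras-like protein, rose at least 5.16-fold from a level below background, Rrad, of the family that inhibits voltage-gated calcium channels, by 2.48 ± 0.14, and the calcium-activated exchange factor Rasgrf1 by 2.13 ± 0.03, although its other probe gave 0.03. The phosphodiesterases Pde1c (1.93 ± 0.09), which calmodulin activates, Pde4d (1.47 ± 0.04) and Pde10a (1.05) rose, within a list of 8 genes higher and 6 lower of 20 tested. These shares are near those over all genes, the list's median was 0.03, and with spike-in scaling 4 were higher and 10 lower.

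Secreted factors and the enzymes that process them were among the larger rises. Neuropeptide genes had 19 genes higher and 2 lower of 27 tested, against 35.8% of all genes higher, with a median of 0.50 (0.09 to 0.80 over the scalings). Adcyap1, precursor of PACAP, went from 2321, 2374 and 2259.8 to 15976, 16536 and 16464 (2.82 ± 0.05). Scg2, a granin of dense-core vesicles, rose by 2.10 ± 0.05, and Pam, which amidates peptides, by 1.29. In the activin and BMP group Inhba, the activin beta A chain, went from 1787, 1933 and 1687 to 16948, 18720.2 and 17408 (3.30 ± 0.07), Bmp3 rose by 2.49 ± 0.05 and Fst, which binds and inhibits activin, by 2.11 ± 0.07. The arrays of these genes did not overlap between groups.

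Prostaglandin genes had 6 genes higher and 2 lower of 12 tested, where 35.8% of all genes were higher and 36% lower. Their median was 0.51 (0.10 to 1.09 over the scalings, and 0.12 for members above background on all 9 arrays). Pla2g4a, which frees arachidonic acid, went from 99.8, 89.8 and 97.2 to 418, 478 and 448 (2.23 ± 0.06). Ptgs2, or cyclooxygenase 2, went from 51.2, 50.9 and 54.5 to 622, 707 and 659 (3.67 ± 0.05). The receptors Ptgfr (3.37 ± 0.18, with 1 control array above background) and Ptger4 (at least 2.77-fold, not passing with normexp at adjusted p = 0.060) were higher, while the synthase Ptges (-0.05) and the degrading enzyme Hpgd (0.05) did not pass. The synthase Ptges2 (-0.34) and the receptor Ptger3 (-0.49; not passing with normexp, adjusted p = 0.38) fell. Among proteases, Mmp10 rose at least 3.27-fold and Adamts1 by 2.34 ± 0.06; Mmp10 did not pass with normexp (0.067). Nrg1, an ErbB ligand, rose by 2.01 ± 0.03 (1.11 to 2.01 over 3 probes), while Egf was at -1.63 ± 0.09, which normexp did not call. Il1a rose at least 3.96-fold and Tslp at least 3.54-fold, whereas Cxcl10 was at -1.46 and Ifit1 at -1.44, the latter turning to 0.77 with normexp (adjusted p = 0.44). The cytokine and interferon list as a whole had 7 genes higher and 14 lower of 29 tested, with a median of -0.30 that was 0.28 with normexp. The summed markers of microglia and macrophages, and of endothelial, mural and fibroblast cells (mostly through Tagln), were also higher under KCl, as given above. The part of those cells in these genes was not tested.

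Receptors and channels changed by less, and unevenly. Of the NMDA receptor subunits 5 genes higher and 0 lower of 6 tested, with a median of 0.54 (0.14 to 0.89 over the scalings; 1 higher and 1 lower with spike-in scaling), and of the metabotropic glutamate receptors 0 genes higher and 4 lower of 5 tested, with a median of -0.17 (-0.58 to -0.14 over the scalings). Both lists are short, and 35.8% of all genes were higher and 36% lower. Grin2a, the subunit that gains weight as synapses mature, went from 184, 206 and 184 to 334, 312 and 341 (0.78 ± 0.06), and Grin1, the obligatory subunit, from 781, 919.7 and 859 to 1168, 1189 and 1119 (0.44 ± 0.07; 0.04 with spike-in scaling, adjusted p = 0.83). Grin2b was at 0.25 ± 0.06, not called with median scaling (adjusted p = 0.34) or normexp (0.76), and at -0.16 with spike-in scaling. Grm8 fell by 0.56, and Grm5 did not pass (-0.05), although the mean of its probes was 0.49. With normexp, Grm8 and Grm3 were not called, nor was Grin2d (0.80), which also missed the threshold with spike-in scaling (adjusted p = 0.057), as did Grin2c (0.65; 0.14).

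The list of GABA synthesis, transport, GABA-B and chloride transporter genes had 13 genes higher and 3 lower of 18 tested, where 35.8% of all genes were higher, with a median of 0.38 (-0.02 to 0.38 over the scalings; 4 higher and 5 lower with spike-in scaling). In it the auxiliary subunits of GABA-B receptors, chosen in part after their values were seen, were higher, with Kctd8 at 1.196 ± 0.04, Kctd12b at 1.12 ± 0.07, Kctd16 at 1.01 ± 0.04 and Kctd12 at 0.70 ± 0.06 (not passing with spike-in scaling, adjusted p = 0.11). Kctd16 went from 458, 489.9 and 481 in control to 998, 949 and 929 under KCl, with no overlap. These proteins set how fast and how long the receptor's G-protein signal lasts. GABA-A subunits had 8 genes higher and 3 lower of 14 tested (median 0.19, -0.21 to 0.25 over the scalings), led by Gabre (1.46) and Gabrg1 (1.38). Voltage-gated potassium channels had 11 genes higher and 16 lower of 35 tested, near the background shares in both directions, with a median of -0.15 that was 0.19 with normexp. Kcnf1 (1.30 ± 0.04), a silent subunit, rose. The G-protein-gated channel Kcnj3 (1.66 ± 0.05) and the stretch-sensitive Kcnk10 (1.47 ± 0.05) also rose, and Kcnj12 was at -1.56 ± 0.14, not called with normexp. Cacna1d, an L-type calcium channel, was at -1.67 ± 0.09 on its brightest probe, and its 3 probes ranged from -1.67 to 0.29; it was not called with normexp (adjusted p = 0.087).

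At the synapse and the cell surface, some non-clustered protocadherins were among the larger rises. Delta protocadherins and classic cadherins had 14 genes higher and 5 lower of 23 tested, where 35.8% of all genes were higher and 36% lower. Their median was 0.55 (0.14 to 0.55 over the scalings), and with spike-in scaling 9 were higher and 8 lower. Pcdh8, which takes part in endocytosis of cadherins at synapses, went from 22629.8, 20549.5 and 22233 to 98944, 95127 and 91224 (2.13 ± 0.05). Pcdh20 went from 1182, 1297 and 1178 to 5064, 5259 and 5426 (2.11 ± 0.05), and Pcdh18 rose by 1.98 ± 0.09. Rab3c, a vesicle GTPase, went from 1812, 1826 and 1856 to 6745, 6434 and 6356 (1.83 ± 0.03), Syt4, a synaptotagmin of dense-core vesicles, rose by 1.74 ± 0.06, and the scaffold Shank2 by 1.68 ± 0.11. Nptx2, which clusters AMPA receptors, went from 614, 595 and 592 to 2699.7, 3050.2 and 2800.3 (2.25 ± 0.06). Arc, which takes part in AMPA receptor removal, went from 2979.8, 2924 and 3059 to 4516, 5204 and 4954 (0.71 ± 0.05, adjusted p = 7.6e-06), but did not pass with spike-in scaling (0.30, adjusted p = 0.073).

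Genes for the 2 kinds of ribosome and for ribosome assembly went different ways. Cytosolic ribosomal proteins had 63 genes higher and 0 lower of 67 tested, with a median of 0.31, and the medians of the single KCl arrays against the control mean were 0.31, 0.30 and 0.37; with spike-in scaling the median was -0.09. Their changes were small, with Rplp0, of the ribosomal stalk, from 208627, 279734 and 275293 to 357243, 360081 and 396807 (0.56 ± 0.11) and Rps12 at 0.49 ± 0.10. These are bright genes: 60 of the 67 were in the brightest 1407 of the 14062 genes, in which 60.7% were higher and 11.5% lower, with a median of 0.18. Under quantile normalization 17 rose and 2 fell, and with spike-in scaling and normexp 0 passed in either direction. The respiratory chain, with 42 of 51 genes in that class, had 30 genes higher and 6 lower of 51 tested and a median of 0.20 (-0.21 to 0.20 over the scalings).

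Mitochondrial ribosomal proteins had 7 genes higher and 49 lower of 78 tested, where 36% of all genes were lower, with a median of -0.19 (-0.60 to -0.19 over the scalings). Their middle member lay in class 8 of 10 from dimmest to brightest, in which 43.0% of genes fell. Mrps31 went from 6918, 6121 and 6264 to 3481, 3550.5 and 3584 (-0.86 ± 0.05), and Mrpl19 and Mrpl3 fell by 0.74 and 0.68. Ribosome biogenesis and RNA polymerase I genes had 3 genes higher and 31 lower of 51 tested, with a median of -0.25 (-0.66 to -0.24 over the scalings). Their middle member lay in class 6, in which 48.6% of genes fell. Rrp9, of the small nucleolar particle, fell from 2811, 2858 and 2670.3 to 1485, 1639.7 and 1469.7 (-0.86 ± 0.05), and Polr1e, a polymerase I subunit, from 918, 921 and 910.1 to 443, 457 and 425 (-1.05 ± 0.04; not called with normexp, adjusted p = 0.17). The methyltransferase Fbl, or fibrillarin, went the other way, from 22927, 23946 and 21902 to 50531, 52665 and 49298 (1.15 ± 0.05), as did Nolc1 (0.97 ± 0.05) on its brighter probe, the other giving -0.31. The lists of assembly factors and Zfp zinc fingers had 4 of 51 and 3 of 314 members in the brightest class.

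Zinc finger genes of the Zfp series, most of them repressors with a KRAB domain, were mostly lower. Of 314 tested, 207 fell, where 36% of all genes did, and 54 rose. The family's middle member lay in the fifth of 10 brightness classes, in which 49.9% of genes fell and 28.7% rose, with a median of -0.13. The family's median was -0.33 (-0.74 to -0.06 over the scalings), and the medians of the 3 KCl arrays were -0.33, -0.31 and -0.33. With normexp 70 fell and 29 rose. Zfp94 was at -1.78 ± 0.11 (not called with normexp), while Zfp459 (2.11 ± 0.06) and Zfp184 (1.64 ± 0.06) rose. Genes of DNA replication and the cell cycle had 5 genes higher and 20 lower of 27 tested, with a median of -0.33 (-0.74 to -0.15 over the scalings). Mcm2, a subunit of the replicative helicase, went from 1255, 1311 and 1259.8 to 632, 638 and 661 (-0.99 ± 0.03; not passing with normexp, adjusted p = 0.053), Mcm4 fell by 0.95, and Ccne1, or cyclin E1, went from 7041, 7083 and 7061 to 3297, 3479.8 and 3456 (-1.05 ± 0.03). Cdk6 was at 1.30 ± 0.05 with 2 of 3 control arrays above background, and was not called with normexp (adjusted p = 0.090). The summed markers of cycling cells and progenitors were lower under KCl too, as given above. That list includes Hes5, whose signal fell by more than the sum did, so the lower sum does not describe the other markers. Of 11 members tested, 2 were higher and 8 lower, and their part in this was not tested.

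**Figure D3:**
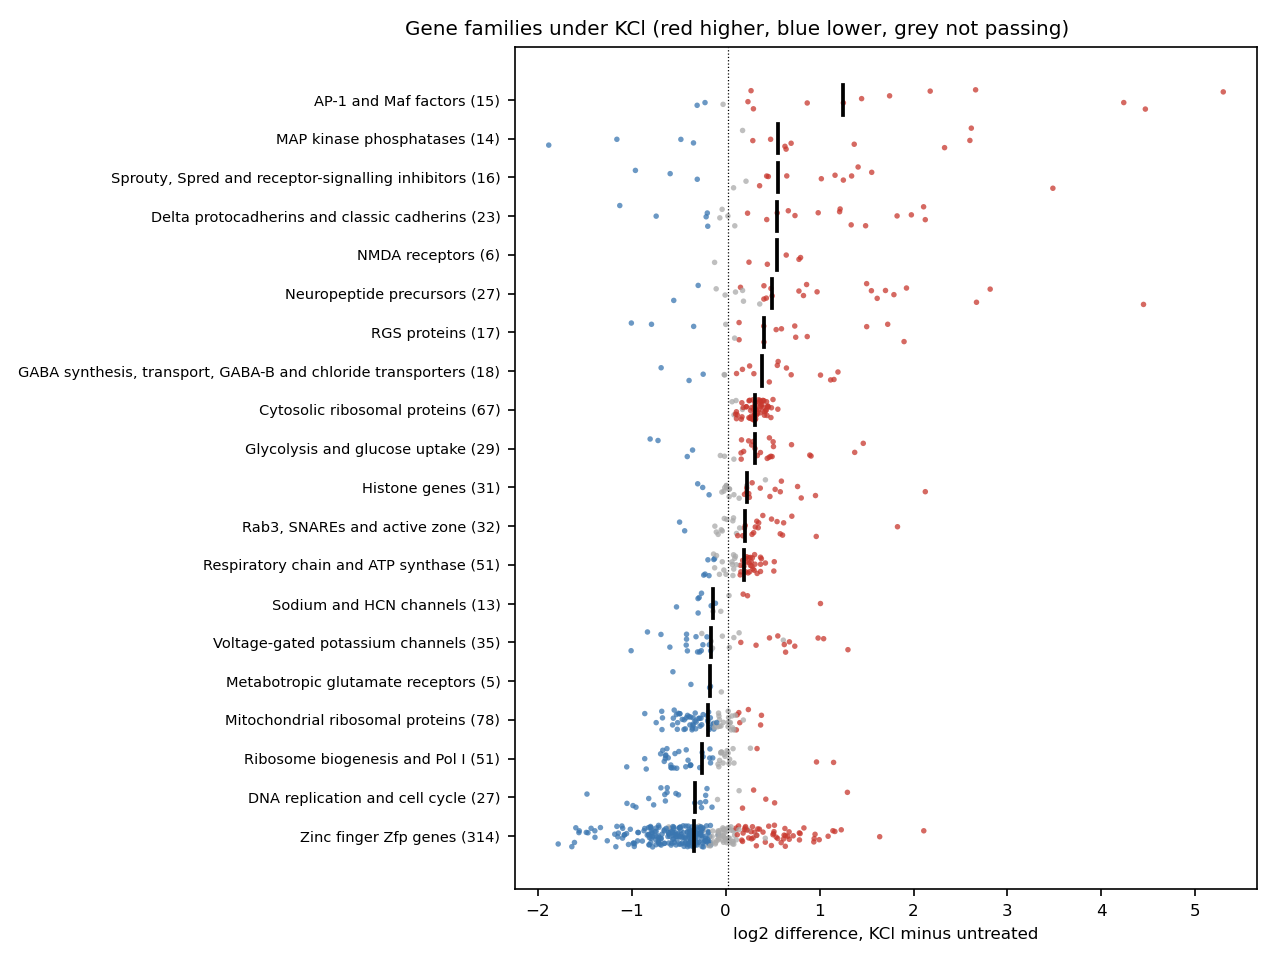
Each row is a gene family with the number of genes tested, each point a gene at its log2 difference, KCl minus untreated; red and blue passed, grey did not, black bars are family medians and the dotted line is the median of all genes. AP-1 factors spread far to the right with a median of 1.25, cytosolic ribosomal proteins sit in a narrow cluster at 0.31, and mitochondrial ribosomal proteins (-0.19), ribosome biogenesis (-0.25) and Zfp genes (-0.33) lie left of the dotted line.

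**Figure D4:**
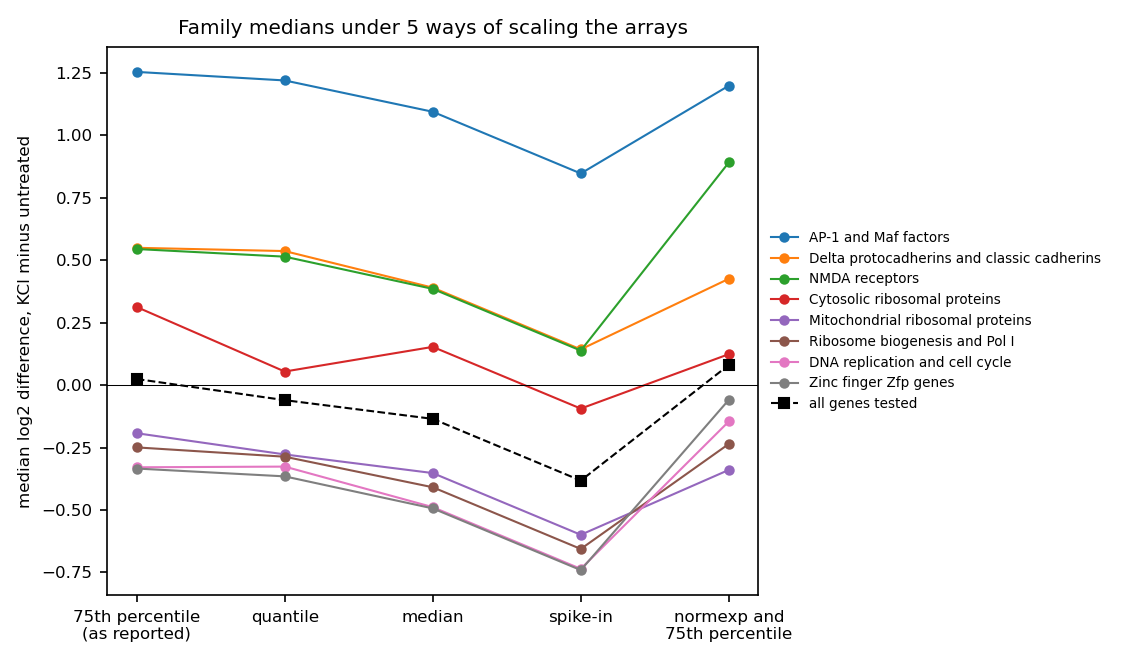
The vertical axis is the median log2 difference, KCl minus untreated, of 8 families and of all genes tested (black squares) under 5 scalings of the arrays. All families drop with the spike-in scale, where the median of all genes is -0.38 and that of cytosolic ribosomal proteins turns to -0.09, while mitochondrial ribosomal proteins, ribosome biogenesis, replication and Zfp genes stay below 0 in each scaling.

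The glycolysis and cholesterol lists moved modestly in their medians. Glycolysis and glucose uptake had 22 genes higher and 4 lower of 29 tested (median 0.31, -0.09 to 0.31 over the scalings), where 35.8% of all genes were higher. With spike-in scaling 4 were higher and 6 lower. The neuronal glucose transporter Slc2a3 went from 24634, 25983 and 25580.1 to 70338, 69892 and 70092 (1.47 ± 0.03), and the lactate transporter Slc16a1 rose by 1.37 ± 0.04. Cholesterol genes had 20 genes higher and 5 lower of 32 tested (median 0.42, 0.02 to 0.42 over the scalings), with Pmvk (1.28 ± 0.06) and Sc5d (1.25 ± 0.06), both enzymes of the synthesis, risen. With spike-in scaling 7 of these were higher and 12 lower. Of the glycolysis and cholesterol lists, 13 of 29 and 11 of 32 genes were in the brightest class, in which 60.7% of genes were higher. The tRNA synthetase Eprs rose by 1.53 ± 0.05. Txnip, an inhibitor of thioredoxin, fell by 1.11, and Sesn3, an antioxidant regulator, rose by 1.24 ± 0.05. Atp1b1, a subunit of the sodium pump that restores the potassium gradient, went from 98453, 105028 and 114519 to 175341, 169951 and 178087 (0.72 ± 0.07), a change that did not pass with spike-in scaling (0.31, adjusted p = 0.067).

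Different probes of some genes disagreed under KCl. Of 4951 genes with 2 or more probes well above background on all 6 arrays, 536 (10.8%) had a probe that rose and another that fell, a count that was 215 with spike-in scaling and 100 with normexp. The gap between them was at least 1 log2 unit in 235 and at least 2 in 37. In 449 of the 536 all probes carried the same RefSeq transcript identifier, and in 87 they carried several. For Arpp21, a cAMP-regulated phosphoprotein gene whose 3 probes carry different identifiers, one probe went from 22406, 22997 and 22194 to 146833, 163281 and 181727 (2.86), while another fell from 41181, 42593 and 42415 to 17567, 19512 and 19016 (-1.17). Both probes were bright and their groups did not overlap. For Pcnx4, probes rose by 2.54 and 2.38 while the brightest fell by 0.80, and for Rabgap1l the 4 probes ranged from -0.42 to 2.85. Ildr2 (-0.45 and 3.22), Kndc1 (-0.66 to 2.35), Pard3 (-0.38 to 2.75), Hecw2 (-0.23 to 2.66) and Slc8a1, the sodium-calcium exchanger (-0.76 to 2.13), also had 1 probe with a rise past 2 log2 units and another that fell. Ndufaf4 (-2.24 to 0.70) and A830018L16Rik (-2.18 to 0.65) had a brightest probe that rose and another that fell by more than 2. Homer1, the postsynaptic scaffold, was at -0.42 ± 0.05 on its brightest probe and reached 0.67 on another. The positions of the probes in these transcripts were not used here, and a value for such a gene is a value of its brightest probe.

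KCl was also set against bicuculline, which raises activity through synapses, in a test of the difference itself. Of 14062 genes, 5076 were higher (36.1%) and 4047 lower (28.8%) in KCl, in all 64.9%. Of the 822 genes that rose at least 2-fold against control, 646 were higher under KCl than under bicuculline and 28 lower, and of the 398 that fell at least 2-fold, 356 were lower and 8 higher. These leans are partly built in, since the same KCl arrays chose the genes. With spike-in scaling 654 genes were higher and 6871 lower in KCl, and with slide as a block 3855 and 3439. Bicuculline replicates 1 and 2 shared no slide with a KCl array. Npas4 differed most, with signals of 892, 790.3 and 837 in control, 1382, 1663 and 1549.8 under bicuculline and 17827, 15964 and 16572 under KCl (KCl minus bicuculline 3.46 ± 0.08, adjusted p = 3.4e-07). Casz1, a zinc finger factor, had 66.6, 63.7 and 84.5, 81.9, 78.9 and 94.4 and 376, 401 and 364 in the same order (2.16 ± 0.11). C2cd4b had 581, 639 and 582, 457, 432 and 419 and 1829.7, 2034 and 1924 (2.15 ± 0.06), so that its bicuculline arrays lay below control and its KCl arrays above it. Dennd2c (2.12 ± 0.16), Glt28d2 (2.03 ± 0.13), D630039A03Rik (1.96 ± 0.11) and the histone genes H2al1m (1.99 ± 0.11) and H2bc23 (1.86 ± 0.10) were also higher in KCl.

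On the other side, Crip3 had 1378, 1328 and 1309 under bicuculline against 319, 355 and 329 under KCl (-2.003 ± 0.06, adjusted p = 3.8e-07), and Hes5 7198, 7452 and 6794 against 2015, 2173 and 2186 (-1.75 ± 0.06). For Crip3 the bicuculline arrays lay just below the control arrays, for Hes5 between control and KCl. The tRNA-modifying Dus4l (-1.84 ± 0.07) and Pus7l (-1.81 ± 0.05) were lower in KCl, as were Plekhh1 (-1.62 ± 0.14) and 1700123K08Rik (-1.80 ± 0.18). Il11, a cytokine, was higher than control in both, with 62.0, 64.1 and 85.2 in control, 116, 112 and 121.8 under KCl and 355, 404 and 391 under bicuculline (-1.72 ± 0.12), though against control its KCl rise did not pass with spike-in scaling (adjusted p = 0.063) or normexp (0.13). With normexp the differences of Dus4l, Pus7l, Plekhh1, 1700123K08Rik and Il11 did not pass (adjusted p from 0.15 to 0.99). For some leading rises the difference was small beside the rise: KCl minus bicuculline was -0.04 ± 0.09 for Prss16 (adjusted p = 0.74), 0.32 ± 0.05 for Cartpt and 0.40 ± 0.10 for Serpinb2. Mitochondrial ribosomal proteins were lower in KCl than in bicuculline in 40 of 78 cases and higher in 10, and Zfp genes lower in 212 of 314 and higher in 41. Over all genes 28.8% were lower and 36.1% higher.

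**Figure D5:**
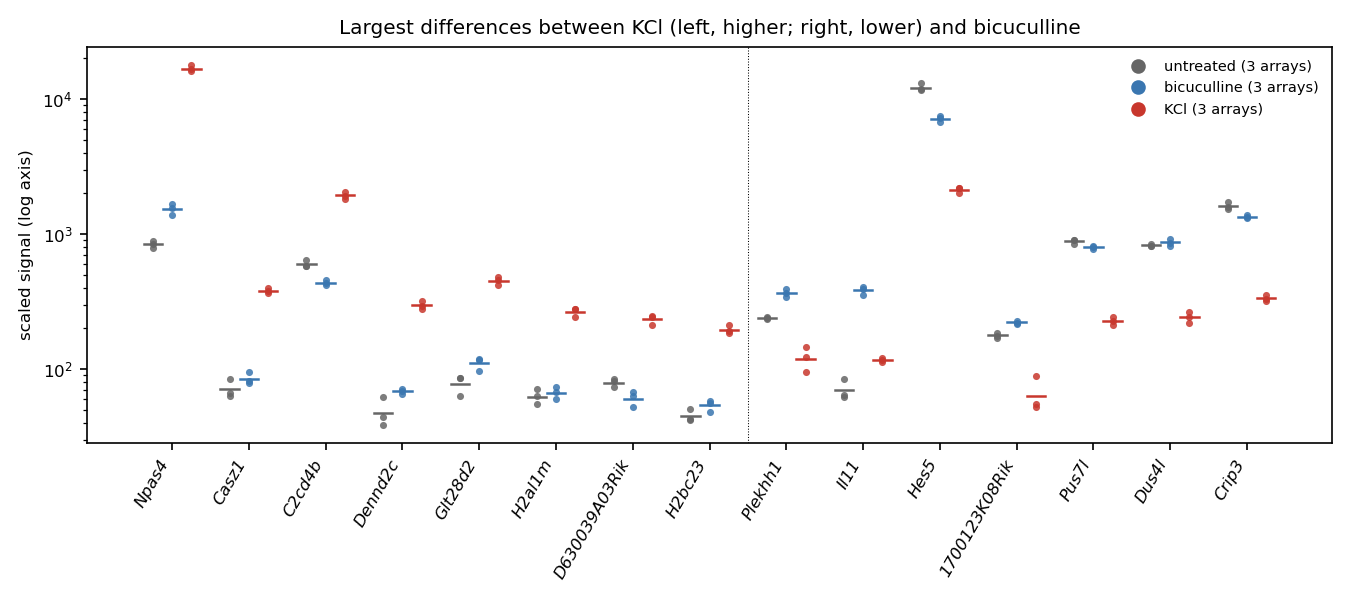
Scaled signal on a log axis on untreated (grey), bicuculline (blue) and KCl (red) arrays, 3 each, for the 8 genes highest (left) and 7 of the lowest (right) in KCl against bicuculline among genes well above background on all 9 arrays; bars are means of log2 values. Npas4 shows the widest gap, and for Casz1, Pus7l and Dus4l the bicuculline arrays lie close to the untreated ones.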

How the data were processed

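Expression was measured on 9 Agilent mouse whole-genome arrays in 1 colour (Cyanine 3), 3 each of KCl, bicuculline and untreated neurons. Per the labels' protocols RNA was extracted with Trizol. The authors deposited each array's scanner output, made with Agilent Feature Extraction (10.7.3.1 per the file headers, 10.5.1.1 per the submitters' processing notes), in which the spot intensity is background-subtracted. The deposited value table repeats these intensities and was not used. The log2 of the processed intensity, as the authors deposited it, was taken here minus each array's 75th percentile over 43379 non-control spots. Spots with an outlier flag (39 values among the genes tested) were dropped and the spots of a probe averaged. A probe was kept if all arrays of some group had it well above background and each group had it on at least 2 arrays. RefSeq accessions named 26888 of 41174 probes, and the brightest probe stood for a gene, giving 14062 genes.

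The groups were fitted with limma 3.58.1 (R 4.3.3) on all 9 arrays, and p-values were adjusted over all genes by the Benjamini-Hochberg method, with 0.05 as the two-sided threshold. The script was tested on simulated data. A probe below background in a whole group gives a bound ("at least N-fold"), against the higher of that probe's signal and the lowest signal well above background. Named are the 12 largest rises and falls, the 8 largest bounds in each direction, the 3 largest changes of each gene list (and members of short lists), the 10 widest probe gaps, the 8 largest differences from bicuculline in each direction and 8 activity genes. The largest rises and falls were taken among genes well above background on all control and KCl arrays, with no overlap between these groups. Outside this rule, Tagln, Hhip, Dio2, Kctd12, Kctd16, Rgs17, Rrp9, Mcm2, Mcm4, Cxcl10 and Ifit1 were chosen after their values were seen. Some genes that the rule names are not reported here. The genes and lists were chosen with earlier results of these data known. Alternatives covered scaling, background, filter, probe choice, blocks, prior, outlier spots and each left-out array. The precision is limited by the number of arrays.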

Additional observations from a re-analysis of the deposited data

Results flagged for a closer look

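Of the probes, 14286 of 41174 matched no gene of the tables used here and stand outside the comparison above. Of 6789 such probes that passed the background filter, 2380 were higher and 1936 lower under KCl, and 615 and 286 by at least 2-fold. Probe A_51_P458008 went from 109, 116 and 106 in control to 7193, 8034 and 7912 under KCl (log2 6.13, 69.9-fold, limma adjusted p = 3.7e-09), a rise close in size to that of Serpinb2. Probe A_52_P35826 went from 130.5, 137 and 122.2 to 2503, 2439 and 2429 (4.24, 18.9-fold, adjusted p = 6.0e-09). Probe A_52_P1147900 was lower, from 369.7, 397 and 390.4 to 75.4, 69.7 and 71.0 (-2.42, adjusted p = 2.0e-08), as was A_51_P487062, from 451, 496 and 494 to 107.3, 101 and 80.3 (-2.33, adjusted p = 6.9e-06). The KCl and control arrays did not overlap for any of these 4 probes, and their genes are not named here.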

How the results depend on the processing

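The scale and the background correction moved the counts, and the cause was not tested. With spike-in scaling 1385 genes were higher and 7472 lower than control (431 and 1550 by at least 2-fold), 654 higher and 6871 lower than bicuculline, and 215 had opposite probes. With median scaling 2941 were higher than control (635 by at least 2-fold, and 709 lower) and 2501 higher than bicuculline. With normexp 1834 were higher and 2316 lower than control (637 and 132 by at least 2-fold), 1099 and 1340 than bicuculline, and 100 had opposite probes. Quantile normalization, the filters, the mean of probes, the prior, outlier spots and the slide block stayed within 1.5 times. Without 1 array, 4422 to 4970 genes were higher and 4786 to 4967 lower than control, 4606 to 5034 and 3795 to 4001 than bicuculline, and 461 to 510 had opposite probes. The share of risen genes with the CRE was 4.74% over rises of any size.

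Replicate numbers are shared between groups but did not pair the arrays: deviations of same-numbered control and KCl arrays correlated at -0.19, -0.15 and -0.57. With the replicate block 4961 genes were higher and 5010 lower (4336 and 4581 within the 6 arrays), with 9766 calls in the same direction as reported.

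Of 296 named values, 37 values over the alternatives turned sign. With quantile normalization Cox6a1 was -0.0301 and Fxyd6 -0.0736. With spike-in scaling Npas1 was -0.00183, Hecw2 -0.11, Rcan2 -0.0251, Fxyd6 -0.13, Egr2 -0.21, Grin2b -0.16, Jun -0.11, Hpgd -0.36 and Crtc2 -0.39. With normexp, values became 0.48 for Kcns1, 0.42 for Wnt10a, 0.36 for Amigo2, 0.19 for 1700123K08Rik, 0.36 for Trpc7, 0.20 for Plekhh1, 0.0024 for Psmb9, 0.16 for Ebf2, 0.44 for Sox13, 0.16 for Nab2, 0.54 for 1700001J03Rik, 0.71 for Fam228a, 0.84 for Tbc1d32, 0.28 for Plk4, 0.77 for Ifit1 and 0.67 for Dnmt3b. With the mean of probes they became -0.34 for A830018L16Rik, 0.26 for Homer1, 1.39 for Ildr2, 1.18 for Kndc1, -0.29 for Ndufaf4, 0.52 for Pard3, 1.37 for Pcnx4, 1.12 for Rabgap1l, 0.15 for Slc8a1 and 0.49 for Grm5, all genes whose probes disagree. Calls were lost for 62 named values with normexp, 31 with spike-in scaling, 7 with median scaling and 4 with quantile normalization. Genes near background, such as the 8 largest falls from above it, give bounds only.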
